A study of Mus musculus with 40 samples.

Results

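The genes described here are those of the Wnt ligands, of the Frizzled receptors that bind them, and of the secreted Sfrp and Dkk inhibitors, measured by RNA-seq in mouse embryonic stem cells. Every gene symbol of the form Wnt, Fzd, Sfrp or Dkk with its number was taken, which gave 37 of the 23228 symbols listed in all 8 libraries. The choice of this family was made with earlier results of these data known. There were 19 Wnt, 10 Fzd, 4 Sfrp and 4 Dkk genes. The cells carried either the homozygous mutation labelled GLP 3A or the wild-type gene. GLP, the product of Ehmt1, is a methyltransferase of lysine 9 of histone H3, and the series asks about its role in propagating histone marks. Each genotype was measured after 1 uM all-trans retinoic acid (RA) and untreated, with 2 libraries in each of the 4 groups, which were GLP 3A with RA, wild type with RA, GLP 3A untreated and wild type untreated. All carried the strain label C57BL/6 (mixed), and all had been grown on feeders with serum and LIF, a self-renewal factor, before 2 passages without feeders in 2i medium. The GLP 3A allele had been made by gene targeting in R1 stem cells and bred through chimeras to C57BL/6 mice. LIF was taken away at the time RA was added, so effects of RA and of LIF withdrawal cannot be told apart, and "with RA" means both throughout. The labels give neither the length of the treatment nor the number of clones or lines behind each genotype. They also do not say whether the 2 libraries of a group are separate cultures, and p-values therefore reflect the spread between these libraries alone, which may be technical.

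Wnt proteins are secreted, lipid-modified signals. They bind a Frizzled receptor together with the co-receptors Lrp5 or Lrp6, which stabilises beta-catenin so that it can act with TCF/LEF factors in the nucleus, or they act without beta-catenin on cell polarity and movement. Sfrp proteins carry a Wnt-binding domain like that of the Frizzled receptors, and Dkk1, Dkk2 and Dkk4 bind Lrp5 and Lrp6. In mouse embryonic stem cells beta-catenin signalling favours self-renewal, and 2i medium imitates it below the receptor with an inhibitor of Gsk3, a kinase that lowers beta-catenin. The labels do not say whether the inhibitors were kept with RA. RA acts through nuclear receptors and makes stem cells differentiate.

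Values are RPKM, reads scaled to gene length and library size, so levels of different genes can be set side by side within a library. Depth is not in the files. Relative to replicate 1 of untreated wild type, and read from the steps between low values, it was 0.95 to 1.25 for the replicate 1 libraries and 0.44 to 0.57 for the replicate 2 libraries. Values near 0 therefore rest on fewer reads in replicate 2. Ehmt1 itself was at 12.96 and 13.9 RPKM in GLP 3A with RA and 24.4 and 23.5 RPKM in wild type with RA, against 14.1 and 14.3 RPKM in untreated GLP 3A and 18.4 and 17.6 RPKM in untreated wild type, and was called lower in GLP 3A with RA (-0.79 ± 0.07, adjusted p = 0.0041) and untreated (-0.32 ± 0.07, adjusted p = 0.0334). The labels do not say what the 3A change is, so the RNA level does not check the genotype. Differences were tested on log2(RPKM + 1) with limma over 13198 genes, those that reached 1 RPKM in 2 or more libraries. Genes with a Benjamini-Hochberg adjusted p under 0.05 count as called, and differences are given on that log2 scale with their standard error (SE). On this scale the change of a gene with a low RPKM is understated. Of the 37 genes 31 were tested, namely 15 Wnt, 10 Fzd, 3 Sfrp and 3 Dkk genes.

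Sequences before the start site are shown for 5 genes, Wnt6 and Wnt9a because they had the largest RA differences among the ligands, Fzd1 and Dkk1 because they were called higher with RA and hold both TCAAAG and TATAAA, as Wnt11 also does, and Fzd7 because it differed between genotypes. RefSeq promoter sequences of build GRCm38.p6 matched 25 of the 37 genes, with 28 start sites. The windows are the 250 bases before the start, at chr1:74771642-74771891 on the plus strand for Wnt6, chr11:59306680-59306929 on the plus strand for Wnt9a, chr5:4758217-4758466 on the minus strand for Fzd1, chr19:30549497-30549746 on the minus strand for Dkk1 and chr1:59481897-59482146 on the plus strand for Fzd7. Capitals mark TCAAAG, a core that TCF/LEF factors bind, and TATAAA, the letters of a TATA box wherever they stand, on either strand.
Wnt6: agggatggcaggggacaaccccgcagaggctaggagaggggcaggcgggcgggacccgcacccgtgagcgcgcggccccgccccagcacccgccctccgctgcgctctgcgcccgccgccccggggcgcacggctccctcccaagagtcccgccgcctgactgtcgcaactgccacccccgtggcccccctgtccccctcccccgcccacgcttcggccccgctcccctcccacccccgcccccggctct
Wnt9a: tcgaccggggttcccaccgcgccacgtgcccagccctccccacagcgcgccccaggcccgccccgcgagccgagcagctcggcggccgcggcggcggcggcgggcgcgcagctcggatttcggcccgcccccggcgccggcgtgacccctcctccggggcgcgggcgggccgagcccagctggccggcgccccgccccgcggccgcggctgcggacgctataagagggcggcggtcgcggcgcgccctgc
Fzd1: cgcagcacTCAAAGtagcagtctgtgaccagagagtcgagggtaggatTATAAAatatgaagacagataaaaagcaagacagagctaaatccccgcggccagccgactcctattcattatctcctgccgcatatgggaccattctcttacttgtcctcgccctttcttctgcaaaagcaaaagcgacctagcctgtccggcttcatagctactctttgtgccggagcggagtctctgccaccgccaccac
Dkk1: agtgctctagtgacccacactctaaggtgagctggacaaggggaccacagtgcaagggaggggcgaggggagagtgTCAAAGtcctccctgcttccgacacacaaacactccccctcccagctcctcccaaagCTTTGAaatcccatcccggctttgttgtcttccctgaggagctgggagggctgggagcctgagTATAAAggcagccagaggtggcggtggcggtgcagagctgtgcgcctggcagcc
Fzd7: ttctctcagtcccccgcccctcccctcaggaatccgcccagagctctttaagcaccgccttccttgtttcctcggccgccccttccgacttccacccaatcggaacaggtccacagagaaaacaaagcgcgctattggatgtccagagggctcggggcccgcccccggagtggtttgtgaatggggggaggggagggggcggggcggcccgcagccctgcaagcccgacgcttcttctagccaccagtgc
Wnt9a had 48 CG pairs in its window, Wnt6 had 28, Fzd7 had 17, Fzd1 had 12 and Dkk1 had 6. The median was 22 over the 28 windows of the family and 6 over all 32851 windows of the table. TCAAAG, searched on both strands, was in 4 of the 25 genes (Dkk1, Fzd1, Wnt11 and Wnt5b) and in 13.8% of all windows. In the Dkk1 window it stood 174 to 169 bases before the start on the gene strand and 117 to 112 bases before it on the opposite strand. In the Fzd1 window it stood 242 to 237 bases before the start. TATAAA was in 4 genes (Dkk1, Dkk2, Fzd1 and Wnt11) and in 12.4% of all windows. It lay 54 to 49 bases before the start in Dkk1 and 202 to 197 bases before it in Fzd1. AGGTCA, the core that RA receptors bind, was in 1 of the 25 genes, Wnt16, and in 14% of all windows. Its direct repeat with a spacer of 5 bases, the classic RA response element, was in 0 of the 25 and in 0.00913% of all windows. These matches describe letters and not binding.

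More genes of the family were detected with RA than in untreated cells. At 1 RPKM or more in both libraries of a group, 25 of the 37 genes were detected in GLP 3A with RA and 28 in wild type with RA, against 12 in untreated GLP 3A and 13 in untreated wild type. Over all symbols the share detected was 50.9% in GLP 3A with RA and 50.5% in wild type with RA, against 48% in each untreated genotype. The gain lay mainly in the ligands, of which 10 of 19 in GLP 3A and 12 of 19 in wild type were detected with RA, whereas Wnt5b and Wnt8a were the 2 detected in either untreated group. Of the 10 receptors, 9 in GLP 3A and 10 in wild type were detected with RA, and 7 and 8 in untreated GLP 3A and untreated wild type. Wnt8b, Wnt9b, Wnt16 and Dkk4 stayed at or under 0.198 RPKM in all 8 libraries. RNA was taken from whole cultures, so fewer cells of a type and less RNA per cell cannot be told apart.

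**Figure D1:**
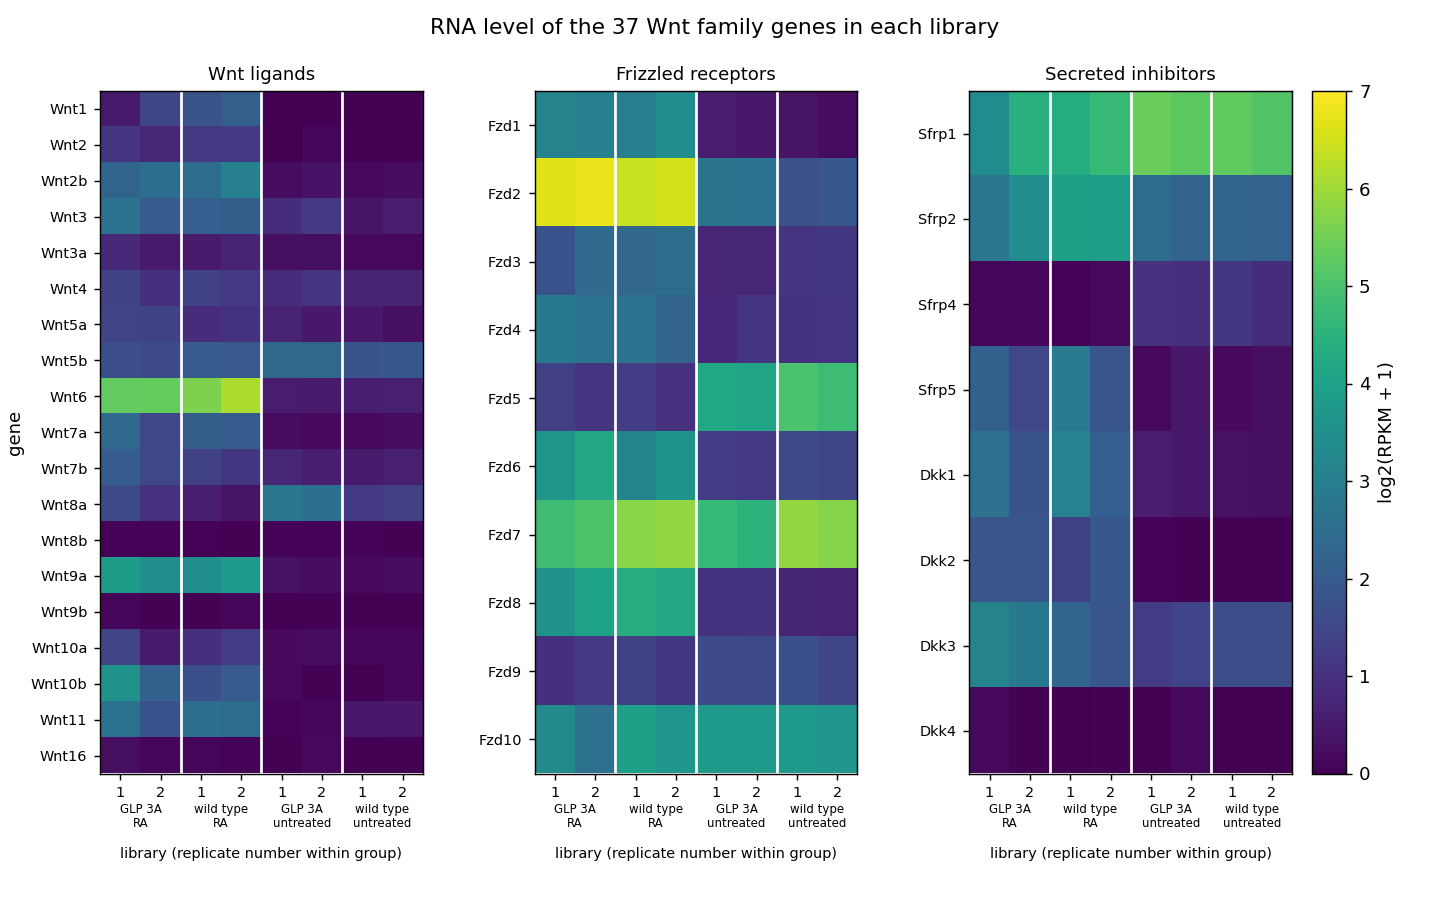
Heat maps of log2(RPKM + 1) for the 19 Wnt, 10 Fzd and 8 Sfrp and Dkk genes (rows) in the 8 libraries (columns, 2 per group, white lines between groups). Fzd2 and Wnt6 are brightest in the 4 libraries with RA, Fzd5 and Sfrp1 are brighter in the 4 untreated ones, and Fzd7 is brighter in wild type than in GLP 3A in both states.

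Ranked by mean RPKM, Fzd2, Wnt6 and Fzd7 were the first 3 of the family with RA in both genotypes. In GLP 3A with RA they averaged 105 ± 6.2, 39.0 ± 0.59 and 29.8 ± 3.3 RPKM (SD, n = 2), and their ranges did not overlap. In wild type with RA they averaged 87.3 ± 3.9, 58.9 ± 15 and 55.3 ± 3.3 RPKM (SD, n = 2), and the libraries of Wnt6 and Fzd7 overlapped. The order of the untreated cells was another. Untreated GLP 3A had Sfrp1 at 39.1 ± 3.0, Fzd7 at 23.5 ± 2.0 and Fzd5 at 16.5 ± 0.79 RPKM, and untreated wild type had Fzd7 at 54.6 ± 3.2, Sfrp1 at 35.8 ± 3.4 and Fzd5 at 29.4 ± 2.9 RPKM (SD, n = 2 each). These 3 did not overlap with one another in either genotype.

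The make-up of the receptor RNA differed between states and genotypes. Fzd2 made up 56.3% and 54.9% of the summed Fzd RPKM in GLP 3A with RA and 42.4% and 43.2% in wild type with RA, against 8.24% and 8.64% in untreated GLP 3A and 2.12% and 2.69% in untreated wild type. Fzd7 made up 15.4% and 16.1% in GLP 3A with RA and 26.6% and 27.6% in wild type with RA, against 37.3% and 35.4% in untreated GLP 3A and 51.3% and 52% in untreated wild type. In each state the GLP 3A libraries thus had a larger Fzd2 share and a smaller Fzd7 share than both wild-type libraries. The sum over the 10 receptors was 179 and 199.4 RPKM in GLP 3A with RA and 199.2 and 208.5 RPKM in wild type with RA, against 66.7 and 62.3 RPKM in untreated GLP 3A and 110.8 and 100.7 RPKM in untreated wild type. The sum over the 19 ligands was 96.5 and 75.9 RPKM in GLP 3A with RA and 89.3 and 117.2 RPKM in wild type with RA, against 14.4 and 14.1 RPKM in untreated GLP 3A and 7.05 and 7.90 RPKM in untreated wild type. Ligand RNA was therefore higher in every library with RA than in any untreated library, and untreated GLP 3A lay above untreated wild type. The 8 inhibitors summed to 34.3 and 43.8 RPKM in GLP 3A with RA and 53.2 and 50.8 RPKM in wild type with RA, against 48.8 and 44.1 RPKM in untreated GLP 3A and 45.7 and 40.4 RPKM in untreated wild type. In GLP 3A the sums with RA were below the untreated ones, but the nearest libraries were almost level, at 43.8 and 44.1 RPKM. Both wild-type libraries with RA were above both untreated wild-type libraries. The inhibitor sum was not tested, so no opposite response of the genotypes can be read from it. Sfrp1 was 82.5% to 84.4% of this sum in the 4 untreated libraries and 27.7% to 50% in the 4 libraries with RA.

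**Figure D2:**
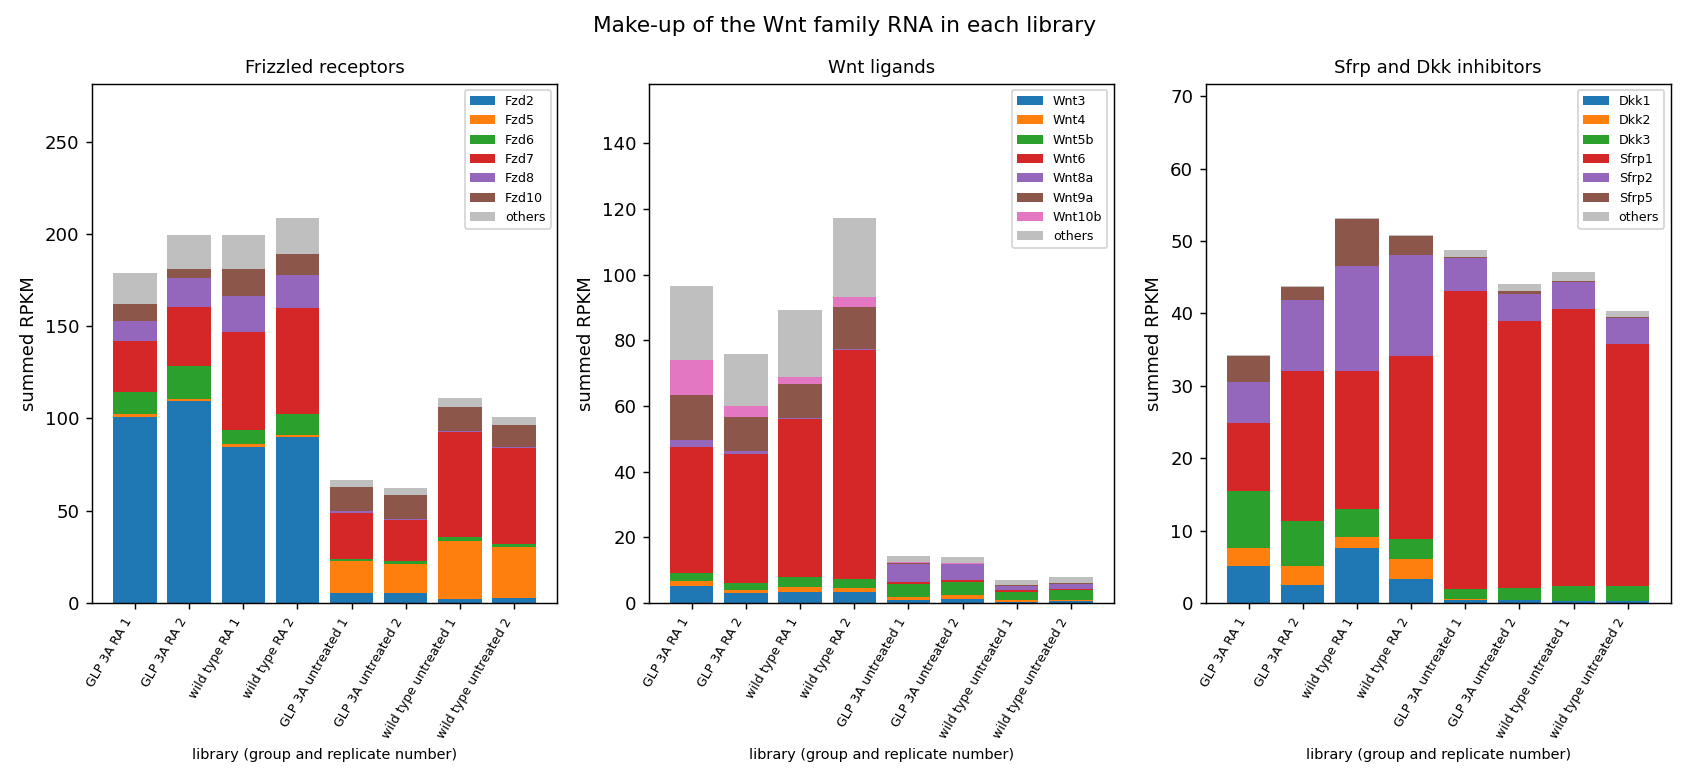
Stacked bars of summed RPKM of the Fzd, Wnt and Sfrp plus Dkk genes in each of the 8 libraries, coloured by gene, with the smaller genes pooled as others. Fzd2 fills more than 42% of the receptor bars with RA and less than 9% of the untreated ones, and Wnt6 fills 40% or more of the ligand bars with RA.

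In the comparison of RA with no treatment, 24 of the 31 tested genes were called higher and 6 lower in GLP 3A cells, and 23 were called higher and 2 lower in wild-type cells. Of all genes tested, 70.4% were called in GLP 3A (32.3% higher and 38.1% lower) and 68.5% in wild type (33.7% higher and 34.8% lower). The median difference of the 31 was 1.33 in GLP 3A and 1.62 in wild type, beside -0.07 and -0.03 over all genes tested. These 31 passed a minimum level, and 4 Wnt, 1 Sfrp and 1 Dkk gene that did not are outside the counts. Without the filter, 24 members were called higher and 7 lower in GLP 3A, and 24 higher and 3 lower in wild type. More genes were tested in that setting, and 53.2% of them were called in GLP 3A and 50.5% in wild type. Fzd1, Sfrp5, Dkk1, Dkk2 and the tested ligands other than Wnt5b and Wnt8a would not have passed the filter without the libraries with RA. For them the filter favoured a higher value with RA. All of them were called higher in wild type, and all but Wnt4 in GLP 3A. Most of the higher calls in the main counts, and the medians, therefore rest on genes that the filter favoured. Of the other tested genes, Fzd2, Fzd3, Fzd4, Fzd6, Fzd8 and Sfrp2 were called higher in both genotypes, and Fzd5 and Wnt8a lower in both. By family, 12 of 15 ligands were called higher and 2 lower in GLP 3A, and 13 were higher and 1 lower in wild type. Of the 10 receptors, 7 were higher and 3 lower in GLP 3A, and 6 were higher and 1 lower in wild type. All 3 tested Dkk genes were called higher in GLP 3A and 2 of them in wild type. In both genotypes the number of calls varied with the library left out, and so did the share of all genes called. Quantile normalization ended the wild-type calls of Wnt4, Wnt5a, Wnt7b and Wnt10a (adjusted p = 0.0725 to 0.388) and the GLP 3A calls of Wnt1, Wnt5a, Wnt10a and Sfrp2 (0.0681 to 0.281).

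**Figure D3:**
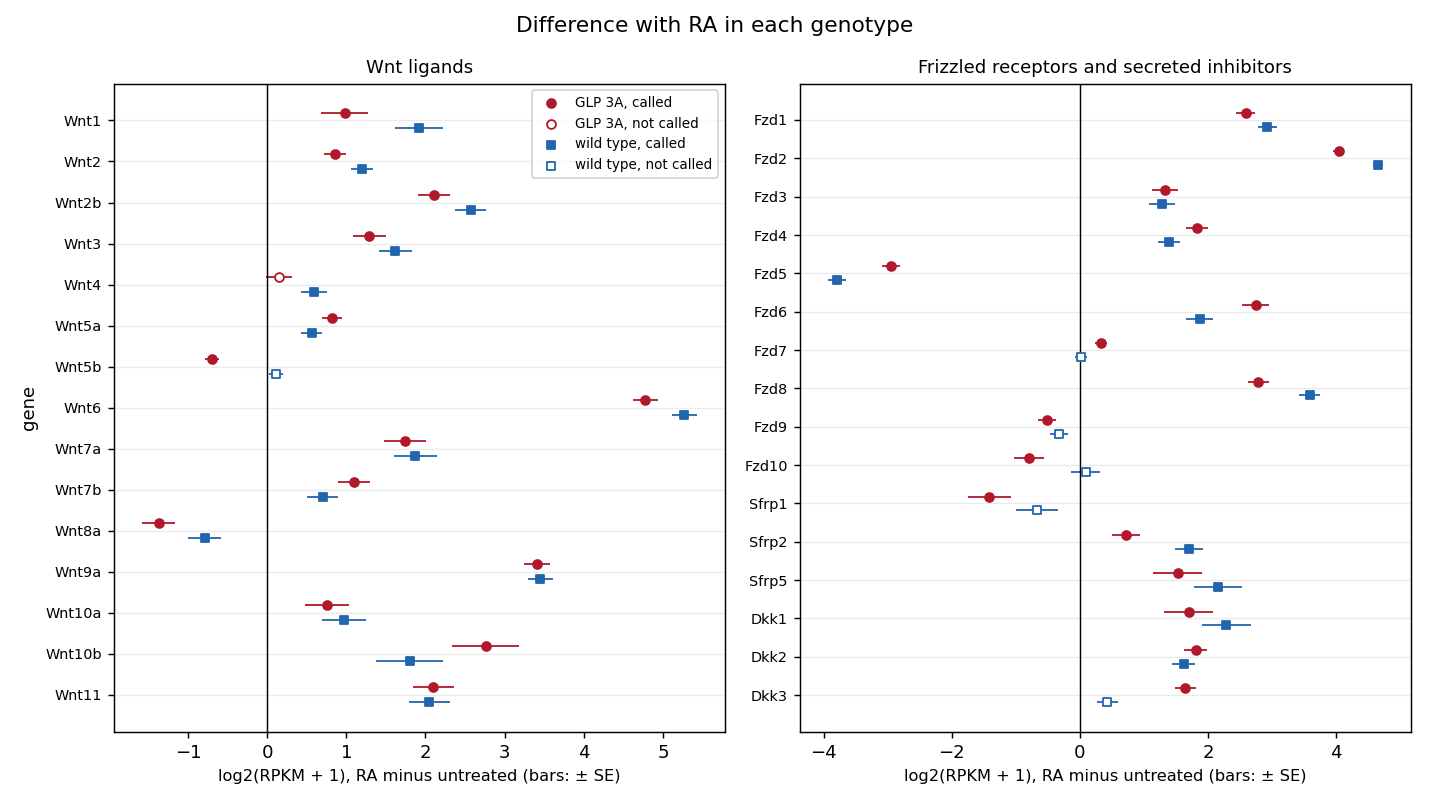
Difference in log2(RPKM + 1), RA minus untreated, with its SE as a bar, for the 15 tested Wnt genes (left panel) and the 16 tested Fzd, Sfrp and Dkk genes (right panel), in GLP 3A (red circles) and wild type (blue squares), open where not called. Wnt6 and Fzd2 lie farthest right at 4.04 to 5.27, Fzd5 lies farthest left at -2.94 in GLP 3A and -3.79 in wild type, and Wnt5b is left of 0 in GLP 3A with an open wild-type symbol near 0.

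Among the ligands, Wnt6, which is made by epithelia such as the surface ectoderm of the embryo, had the largest RA difference. Wnt6 was at 38.6 and 39.4 RPKM in GLP 3A with RA and 48.1 and 69.7 RPKM in wild type with RA, against 0.486 and 0.424 RPKM in untreated GLP 3A and 0.507 and 0.538 RPKM in untreated wild type. All libraries with RA were far above all untreated ones, and the ratio of the mean RPKM was 85.7 in GLP 3A and 113 in wild type. The difference was 4.78 ± 0.16 in GLP 3A (adjusted p = 7.2e-06) and 5.27 ± 0.16 in wild type (adjusted p = 4.7e-06). Wnt9a, which acts in joint formation, was at 13.7 and 10.2 RPKM in GLP 3A with RA and 10.2 and 12.8 RPKM in wild type with RA, against 0.244 and 0.176 RPKM in untreated GLP 3A and 0.0997 and 0.177 RPKM in untreated wild type. Its libraries with RA of both genotypes lay in the same range, well above the untreated ones. The difference was 3.41 ± 0.16 in GLP 3A (adjusted p = 1.6e-05) and 3.45 ± 0.16 in wild type (adjusted p = 1.5e-05). Wnt6 made up 40% and 51.9% of the summed ligand RPKM in GLP 3A with RA and 53.9% and 59.5% in wild type with RA, against 3.36% and 3.02% in untreated GLP 3A and 7.20% and 6.81% in untreated wild type.

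Wnt10b, Wnt2b, Wnt3 and Wnt1 are best known for signalling through beta-catenin, and all 4 were called higher with RA in both genotypes. Wnt10b, which restrains fat cell formation and promotes bone, was at 10.8 and 3.44 RPKM in GLP 3A with RA and 2.25 and 3.00 RPKM in wild type with RA, against 0.104 and 0.0268 RPKM in untreated GLP 3A and 0 and 0.0689 RPKM in untreated wild type. Replicate 1 of GLP 3A with RA stood apart from the other 3 libraries with RA. The RA difference was 2.76 ± 0.42 in GLP 3A (adjusted p = 0.00128) and 1.80 ± 0.42 in wild type (adjusted p = 0.00852). Wnt2b, which specifies the lung together with Wnt2, was at 3.81 and 4.77 RPKM in GLP 3A with RA and 4.61 and 7.24 RPKM in wild type with RA, against 0.174 and 0.274 RPKM in untreated GLP 3A and 0.126 and 0.166 RPKM in untreated wild type. There was no overlap between treated and untreated libraries, and the difference was 2.11 ± 0.20 in GLP 3A (adjusted p = 1.7e-04) and 2.57 ± 0.20 in wild type (adjusted p = 8.0e-05). Wnt3, which the mouse embryo needs to form its primitive streak, was at 5.26 and 3.05 RPKM in GLP 3A with RA and 3.24 and 3.22 RPKM in wild type with RA, against 0.888 and 1.26 RPKM in untreated GLP 3A and 0.304 and 0.449 RPKM in untreated wild type. Its untreated GLP 3A libraries were above the untreated wild-type ones, and all were below the libraries with RA. With RA the difference was 1.29 ± 0.21 in GLP 3A (adjusted p = 0.00195) and 1.62 ± 0.21 in wild type (adjusted p = 7.3e-04). Wnt1, needed for the midbrain, was at 0.429 and 1.75 RPKM in GLP 3A with RA and 2.44 and 3.36 RPKM in wild type with RA, against 0.0142 and 0 RPKM in untreated GLP 3A and 0.0251 and 0.0251 RPKM in untreated wild type. Replicate 1 of GLP 3A with RA was low, yet above every untreated library. The difference was 0.98 ± 0.30 in GLP 3A (adjusted p = 0.0248) and 1.92 ± 0.30 in wild type (adjusted p = 0.00155). Its GLP 3A call was lost without either untreated GLP 3A library (adjusted p = 0.0835 and 0.0879).

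Wnt2 reached about 1 RPKM with RA, at 1.11 and 0.683 RPKM in GLP 3A with RA and 1.30 and 1.29 RPKM in wild type with RA, against 0 and 0.0805 RPKM in untreated GLP 3A and 0 and 0 RPKM in untreated wild type, and was listed at 0 in 3 of the 4 untreated libraries. The difference was 0.86 ± 0.14 in GLP 3A (adjusted p = 0.00163) and 1.20 ± 0.14 in wild type (adjusted p = 4.1e-04). Wnt7a, which patterns the limb and the female reproductive tract, was at 4.21 and 1.82 RPKM in GLP 3A with RA and 3.19 and 3.13 RPKM in wild type with RA, against 0.161 and 0.130 RPKM in untreated GLP 3A and 0.106 and 0.174 RPKM in untreated wild type. The libraries with RA were all above the untreated ones, and the difference was 1.74 ± 0.27 in GLP 3A (adjusted p = 0.00134) and 1.87 ± 0.27 in wild type (adjusted p = 0.00103). Wnt7b, which acts in placenta, lung and brain vessels, was at 3.09 and 1.84 RPKM in GLP 3A with RA and 1.63 and 1.19 RPKM in wild type with RA, against 0.686 and 0.508 RPKM in untreated GLP 3A and 0.421 and 0.538 RPKM in untreated wild type. The groups with RA were above the untreated ones without overlap, by 1.10 ± 0.20 in GLP 3A (adjusted p = 0.00269) and 0.70 ± 0.20 in wild type (adjusted p = 0.0184). Wnt7b shares its locus with AU022754, so its reads are uncertain. Wnt10a, known from teeth and skin, was at 1.68 and 0.432 RPKM in GLP 3A with RA and 0.944 and 1.32 RPKM in wild type with RA, against 0.125 and 0.185 RPKM in untreated GLP 3A and 0.0766 and 0.0944 RPKM in untreated wild type. Its spread between replicates was wide in GLP 3A with RA. The difference was 0.76 ± 0.28 in GLP 3A (adjusted p = 0.049) and 0.97 ± 0.28 in wild type (adjusted p = 0.0215). Wnt10a lost its GLP 3A call when any of 7 of the 8 libraries was left out (adjusted p = 0.0675 to 0.153), and its wild-type call without wild type with RA replicate 2 or either untreated wild-type library (0.0792 to 0.0985). Wnt7b lost its wild-type call without replicate 1 of wild type with RA or either untreated wild-type library (0.0577 to 0.0919).

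Wnt11, Wnt5a and Wnt4 can act without beta-catenin. Wnt11, which guides cell movements at gastrulation and kidney branching, was at 5.22 and 2.41 RPKM in GLP 3A with RA and 4.79 and 4.61 RPKM in wild type with RA, against 0.0540 and 0.0918 RPKM in untreated GLP 3A and 0.363 and 0.393 RPKM in untreated wild type. It was higher in all libraries with RA than in any untreated library. The difference was 2.10 ± 0.26 in GLP 3A (adjusted p = 5.4e-04) and 2.05 ± 0.26 in wild type (adjusted p = 6.3e-04). Wnt5a, which drives outgrowth of limbs and body axis, was at 1.73 and 1.58 RPKM in GLP 3A with RA and 0.840 and 1.03 RPKM in wild type with RA, against 0.611 and 0.392 RPKM in untreated GLP 3A and 0.401 and 0.227 RPKM in untreated wild type. The 2 GLP 3A libraries with RA were the highest. The difference was 0.82 ± 0.13 in GLP 3A (adjusted p = 0.00156) and 0.56 ± 0.13 in wild type (adjusted p = 0.00867), and the wild-type call was lost without untreated wild type replicate 2 (adjusted p = 0.0618). Wnt4, which acts in kidney and ovary, was at 1.54 and 0.905 RPKM in GLP 3A with RA and 1.55 and 1.27 RPKM in wild type with RA, against 0.852 and 1.12 RPKM in untreated GLP 3A and 0.619 and 0.584 RPKM in untreated wild type. Untreated GLP 3A overlapped with GLP 3A with RA, and the wild-type groups did not overlap. The difference was 0.15 ± 0.16 in GLP 3A (adjusted p = 0.446) and 0.59 ± 0.16 in wild type (adjusted p = 0.018), called in wild type. The difference between these responses was not called (-0.44 ± 0.23, adjusted p = 0.342). The wild-type call was lost without replicate 1 of wild type with RA or either untreated wild-type library (0.0683 to 0.0843).

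Wnt5b and Wnt8a, the 2 ligands detected in untreated cells, did not share the increase. Wnt5b, a close relative of Wnt5a, was at 2.24 and 2.00 RPKM in GLP 3A with RA and 3.04 and 2.90 RPKM in wild type with RA, against 4.01 and 4.09 RPKM in untreated GLP 3A and 2.54 and 2.81 RPKM in untreated wild type. The 2 untreated GLP 3A libraries were the highest of the 8 and the 2 GLP 3A libraries with RA the lowest. The difference with RA was -0.70 ± 0.09 in GLP 3A (adjusted p = 6.2e-04) and 0.11 ± 0.09 in wild type (adjusted p = 0.299), so Wnt5b fell in GLP 3A and was not called in wild type. Its locus overlaps that of Fbxl14, so its reads are uncertain. Wnt8a, which acts in the primitive streak, was at 2.02 and 0.990 RPKM in GLP 3A with RA and 0.502 and 0.295 RPKM in wild type with RA, against 5.77 and 4.93 RPKM in untreated GLP 3A and 1.29 and 1.53 RPKM in untreated wild type. Untreated GLP 3A was highest and wild type with RA lowest, with no overlap between the genotypes in either state. The difference with RA was -1.37 ± 0.21 in GLP 3A (adjusted p = 0.00137) and -0.79 ± 0.21 in wild type (adjusted p = 0.0153), lower in both. The wild-type call of Wnt8a was lost without replicate 2 of either wild-type group (adjusted p = 0.0754 and 0.08). Together Wnt5b and Wnt8a were most of the untreated ligand RNA: Wnt8a was 40% and 35.1% of it in untreated GLP 3A and 18.2% and 19.3% in untreated wild type, and Wnt5b was 27.8% and 29.1% in untreated GLP 3A and 36% and 35.5% in untreated wild type. Wnt3a, long used as a purified Wnt in cell culture, was not tested and was at 0.712 and 0.420 RPKM in GLP 3A with RA and 0.425 and 0.632 RPKM in wild type with RA, against 0.216 and 0.19997 RPKM in untreated GLP 3A and 0.107 and 0.119 RPKM in untreated wild type.

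Several ligand genes lie in neighbouring pairs with no other symbol between them in the mm9 loci of the files. Wnt6 (chromosome 1, 74818465 to 74831893) and Wnt10a (74838592 to 74850749) lay 6.7 kb apart, and Wnt10a with RA was at 0.432 to 1.68 RPKM beside 38.6 to 69.7 RPKM for Wnt6. Wnt9a (chromosome 11, 59120431 to 59147054) lay 16.2 kb from Wnt3a (59061543 to 59104253), which stayed at or under 0.712 RPKM. Wnt3 (chromosome 11, 103635488 to 103679335) lay 24.4 kb from Wnt9b (103588676 to 103611135), which stayed at or under 0.0922 RPKM. Wnt10b (chromosome 15, 98602182 to 98608581) and Wnt1 (98620287 to 98624261) lay 11.7 kb apart, and their levels overlapped in wild type with RA, at 2.25 and 3.00 RPKM for Wnt10b and 2.44 and 3.36 RPKM for Wnt1. Both genes were called higher with RA in both genotypes for Wnt6 with Wnt10a and for Wnt10b with Wnt1, and 1 gene of the pair was tested in the other 2 pairs.

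Among the receptors, Fzd2, Fzd1 and Fzd7 form a subgroup of close relatives that answered RA differently. Fzd2 was at 101 and 109.5 RPKM in GLP 3A with RA and 84.6 and 90.1 RPKM in wild type with RA, against 5.496 and 5.39 RPKM in untreated GLP 3A and 2.35 and 2.70 RPKM in untreated wild type. Every library with RA was many times above every untreated one, with a ratio of mean RPKM of 19.3 in GLP 3A and 34.6 in wild type. The difference was 4.04 ± 0.08 in GLP 3A (adjusted p = 3.1e-06) and 4.65 ± 0.08 in wild type (adjusted p = 2.0e-06). Fzd1 was at 7.74 and 7.33 RPKM in GLP 3A with RA and 7.17 and 9.80 RPKM in wild type with RA, against 0.468 and 0.363 RPKM in untreated GLP 3A and 0.289 and 0.179 RPKM in untreated wild type. It was under 0.5 RPKM in each untreated library and over 7 RPKM in each library with RA, a difference of 2.59 ± 0.15 in GLP 3A (adjusted p = 2.9e-05) and 2.93 ± 0.15 in wild type (adjusted p = 1.8e-05). Fzd7, a receptor known from pluripotent stem cells, was at 27.5 and 32.1 RPKM in GLP 3A with RA and 53.0 and 57.6 RPKM in wild type with RA, against 24.9 and 22.1 RPKM in untreated GLP 3A and 56.9 and 52.4 RPKM in untreated wild type. The wild-type groups overlapped between states, and the GLP 3A libraries were below all wild-type libraries in both. With RA Fzd7 rose by 0.33 ± 0.10 in GLP 3A (adjusted p = 0.0287), a call that was lost without replicate 2 of GLP 3A with RA or of untreated GLP 3A. In wild type Fzd7 did not pass the test, at 0.02 ± 0.10, adjusted p = 0.901. The difference between these responses was not called (0.31 ± 0.15, adjusted p = 0.295).

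Fzd5 and Fzd8, another pair of close relatives, went opposite ways. Fzd5, needed for yolk sac vessels and eye, was at 1.53 and 1.07 RPKM in GLP 3A with RA and 1.41 and 1.01 RPKM in wild type with RA, against 17.1 and 16.0 RPKM in untreated GLP 3A and 31.5 and 27.4 RPKM in untreated wild type. Untreated libraries were above all libraries with RA, and untreated wild type was above untreated GLP 3A. With RA Fzd5 differed by -2.94 ± 0.14 in GLP 3A (adjusted p = 1.7e-05) and -3.79 ± 0.14 in wild type (adjusted p = 8.2e-06). Fzd5 was 25.6% of the summed Fzd RPKM in both untreated GLP 3A libraries and 28.4% and 27.2% in the untreated wild-type libraries, and at most 0.855% in any library with RA. Fzd8 was at 10.9 and 15.6 RPKM in GLP 3A with RA and 19.6 and 17.7 RPKM in wild type with RA, against 1.03 and 1.04 RPKM in untreated GLP 3A and 0.649 and 0.605 RPKM in untreated wild type. The states did not overlap in either genotype. The difference was 2.79 ± 0.16 in GLP 3A (adjusted p = 2.8e-05) and 3.59 ± 0.16 in wild type (adjusted p = 1.2e-05).

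Fzd3 and Fzd6 act in planar polarity, in neural tube closure and hair orientation. Fzd6 was at 12.0 and 17.6 RPKM in GLP 3A with RA and 7.94 and 11.2 RPKM in wild type with RA, against 1.348 and 1.27 RPKM in untreated GLP 3A and 2.00 and 1.73 RPKM in untreated wild type. GLP 3A had the lowest untreated and the highest treated values. The difference was 2.75 ± 0.21 in GLP 3A (adjusted p = 8.0e-05) and 1.87 ± 0.21 in wild type (adjusted p = 3.8e-04). Fzd3 was at 2.39 and 4.25 RPKM in GLP 3A with RA and 3.99 and 4.52 RPKM in wild type with RA, against 0.678 and 0.671 RPKM in untreated GLP 3A and 1.11 and 1.21 RPKM in untreated wild type. Libraries with RA were all above the untreated ones, by 1.33 ± 0.20 in GLP 3A (adjusted p = 0.00129) and 1.28 ± 0.20 in wild type (adjusted p = 0.00162). Fzd4, which also binds the vessel factor Norrin, was at 6.06 and 5.37 RPKM in GLP 3A with RA and 5.36 and 3.67 RPKM in wild type with RA, against 0.715 and 1.06 RPKM in untreated GLP 3A and 1.05 and 1.12 RPKM in untreated wild type. Its libraries with RA were all above the untreated ones as well, by 1.83 ± 0.17 in GLP 3A (adjusted p = 1.7e-04) and 1.39 ± 0.17 in wild type (adjusted p = 5.7e-04). Fzd9 and Fzd10 were called lower in GLP 3A and not in wild type. Fzd10 was at 9.10 and 5.21 RPKM in GLP 3A with RA and 14.5 and 11.7 RPKM in wild type with RA, against 12.9 and 12.5 RPKM in untreated GLP 3A and 12.8 and 11.6 RPKM in untreated wild type. The 2 GLP 3A libraries with RA were the lowest of the 8, and the wild-type states overlapped. The difference was -0.79 ± 0.23 in GLP 3A (adjusted p = 0.0192) and 0.09 ± 0.23 in wild type (adjusted p = 0.735). Fzd9 was at 0.964 and 1.29 RPKM in GLP 3A with RA and 1.59 and 1.19 RPKM in wild type with RA, against 2.07 and 1.95 RPKM in untreated GLP 3A and 2.25 and 1.77 RPKM in untreated wild type. All libraries with RA were below all untreated ones. Its difference was -0.51 ± 0.14 in GLP 3A (adjusted p = 0.0179) and -0.33 ± 0.14 in wild type (adjusted p = 0.0766). The difference between the genotypes' responses was not called for either gene. The GLP 3A call of Fzd10 was lost without either untreated GLP 3A library (adjusted p = 0.0664 and 0.0785), and that of Fzd9 without GLP 3A with RA replicate 1 or either untreated GLP 3A library (0.0615 to 0.0823).

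Secreted inhibitors moved in both directions. Sfrp1, the most abundant inhibitor of the untreated cells, was at 9.48 and 20.8 RPKM in GLP 3A with RA and 19.1 and 25.4 RPKM in wild type with RA, against 41.2 and 36.99 RPKM in untreated GLP 3A and 38.2 and 33.4 RPKM in untreated wild type. All libraries with RA were below all untreated ones, and replicate 1 of GLP 3A with RA was the lowest. The difference with RA was -1.41 ± 0.33 in GLP 3A (adjusted p = 0.00878) and -0.67 ± 0.33 in wild type (adjusted p = 0.115). Sfrp1 was thus called lower in GLP 3A and not called in wild type. The difference between these responses was not called (-0.73 ± 0.47, adjusted p = 0.424). Sfrp2 was at 5.68 and 9.78 RPKM in GLP 3A with RA and 14.5 and 13.9 RPKM in wild type with RA, against 4.60 and 3.73 RPKM in untreated GLP 3A and 3.79 and 3.56 RPKM in untreated wild type. Wild type with RA was the highest group. The difference was 0.72 ± 0.22 in GLP 3A (adjusted p = 0.0242) and 1.70 ± 0.22 in wild type (adjusted p = 6.7e-04), and the GLP 3A call was lost without untreated GLP 3A replicate 2 (adjusted p = 0.118). Sfrp5 was at 3.48 and 1.83 RPKM in GLP 3A with RA and 6.57 and 2.60 RPKM in wild type with RA, against 0.116 and 0.359 RPKM in untreated GLP 3A and 0.132 and 0.207 RPKM in untreated wild type. Replicate 1 was higher than replicate 2 in both genotypes with RA, and both were above the untreated libraries. The difference was 1.53 ± 0.38 in GLP 3A (adjusted p = 0.0105) and 2.16 ± 0.38 in wild type (adjusted p = 0.00253), and the GLP 3A call was lost without replicate 1 of GLP 3A with RA or of untreated GLP 3A (0.0513 and 0.0578). Sfrp4 was not tested, since 1 library alone reached 1 RPKM, and it was at 0.0990 and 0.0960 RPKM in GLP 3A with RA and 0.0513 and 0.110 RPKM in wild type with RA, against 0.983 and 0.916 RPKM in untreated GLP 3A and 1.19 and 0.886 RPKM in untreated wild type.

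The Dkk genes differed from the Sfrp genes in that no tested one was lower with RA. Dkk1, which the mouse needs to form its head and which is itself a beta-catenin target, was at 5.07 and 2.43 RPKM in GLP 3A with RA and 7.52 and 3.27 RPKM in wild type with RA, against 0.460 and 0.358 RPKM in untreated GLP 3A and 0.248 and 0.217 RPKM in untreated wild type. As for Sfrp5, replicate 1 was the higher library with RA in both genotypes, and there was no overlap with untreated libraries. The difference was 1.70 ± 0.38 in GLP 3A (adjusted p = 0.00689) and 2.29 ± 0.38 in wild type (adjusted p = 0.00195). Dkk2 was at 2.58 and 2.69 RPKM in GLP 3A with RA and 1.59 and 2.81 RPKM in wild type with RA, against 0.0562 and 0.0244 RPKM in untreated GLP 3A and 0.0226 and 0.0215 RPKM in untreated wild type. It was nearly absent from untreated libraries and above 1.5 RPKM in all others, a difference of 1.81 ± 0.18 in GLP 3A (adjusted p = 2.3e-04) and 1.62 ± 0.18 in wild type (adjusted p = 3.8e-04). Dkk3, a divergent member that does not bind Lrp5 or Lrp6, was at 7.77 and 6.14 RPKM in GLP 3A with RA and 3.86 and 2.70 RPKM in wild type with RA, against 1.39 and 1.65 RPKM in untreated GLP 3A and 2.12 and 2.17 RPKM in untreated wild type. The 2 GLP 3A libraries with RA were the highest of the 8 and the 2 untreated GLP 3A libraries the lowest. The difference with RA was 1.65 ± 0.16 in GLP 3A (adjusted p = 2.1e-04) and 0.43 ± 0.16 in wild type (adjusted p = 0.0553). Dkk3 was thus called higher in GLP 3A and not called in wild type. The difference between these responses was not called (1.23 ± 0.23, adjusted p = 0.0601).

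Markers of other cell types moved with RA too. The summed RPKM of 10 pluripotency markers was 385 and 179 in GLP 3A with RA and 270 and 149 in wild type with RA, against 4450 and 4410 in untreated GLP 3A and 5320 and 5390 in untreated wild type. All 10 were at 1 RPKM or more in both untreated groups, as the label of stem cells asks, and 9 in GLP 3A and 6 in wild type with RA. Of 14 extraembryonic endoderm markers, 12 in GLP 3A and 11 in wild type were at 1 RPKM or more with RA and 4 in each untreated group. They summed to 765 and 723 RPKM in GLP 3A with RA and 1270 and 688 RPKM in wild type with RA, against 294 and 296 RPKM in untreated GLP 3A and 126 and 125 RPKM in untreated wild type. In both genotypes with RA the library with the higher sum also had more Dkk1 and Sfrp5, but the GLP 3A sums were near each other. With 2 libraries a group nothing can be read from this order. Of 10 trophoblast markers, 7 with RA and 6 untreated were at 1 RPKM or more in either genotype, and they summed to 1820 and 1110 RPKM in GLP 3A with RA and 900 and 864 RPKM in wild type with RA, against 109 and 109 RPKM in untreated GLP 3A and 63.5 and 64 RPKM in untreated wild type. Of 12 fibroblast or feeder markers, 8 with RA and 2 untreated were at that level in either genotype, summing to 109 to 141 RPKM with RA and 22.5 to 26.7 RPKM untreated. Lum was listed at 0 in all 4 untreated libraries and S100a4 in both untreated wild-type ones, while Fbln1 was at 19.99 and 20.2 RPKM in untreated GLP 3A and 17.9 and 19.2 RPKM in untreated wild type, and Thy1 was at 3.46 and 3.42 RPKM in untreated GLP 3A and 3.20 and 3.17 RPKM in untreated wild type. Of 8 tested trophoblast markers 6 were called higher and 2 lower with RA in each genotype, and the trophoblast factors Elf5 and Cdx2 were at or under 0.231 and 1.11 RPKM in all 8 libraries. Of 8 mesoderm markers, 4 in GLP 3A and 5 in wild type with RA and 1 in each untreated group were at that level, with sums of 10 and 9.39 RPKM in GLP 3A with RA and 23.9 and 21.3 RPKM in wild type with RA, against 9.36 and 9.15 RPKM in untreated GLP 3A and 4.71 and 5.02 RPKM in untreated wild type. Of 9 neural markers, 5 in GLP 3A and 6 in wild type with RA, and 3 and 4 in untreated GLP 3A and untreated wild type, were at that level, with sums of 65.9 to 89.9 RPKM with RA and 29.2 to 51.3 RPKM untreated. The part of these cell types in the differences of the Wnt family was not tested.

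Between the genotypes in untreated cells, 3 of the 31 tested genes were called higher in GLP 3A (Fzd2, Wnt8a and Wnt5b) and 2 lower (Fzd7 and Fzd5). Of all genes tested 11.7% were called, 7.52% higher and 4.15% lower. The 5 of 31 in the family, which differ little from that share, are given as single genes. The median difference of the 31 was 0.07, beside 0.04 over all genes. Before adjustment 6 of the 31 limma p-values (19.4%) were under 0.05, beside 28.3% over all genes. Fzd7 had the largest decrease, with 24.9 and 22.1 RPKM in GLP 3A and 56.9 and 52.4 RPKM in wild type, a difference of -1.19 ± 0.10, adjusted p = 0.00269. The 2 wild-type libraries were both more than 2-fold above the GLP 3A libraries. Fzd5, at 17.1 and 16.0 RPKM in GLP 3A and 31.5 and 27.4 RPKM in wild type, differed by -0.79 ± 0.14, adjusted p = 0.0208. Fzd2 was the receptor that rose, at 5.496 and 5.39 RPKM in GLP 3A and 2.35 and 2.70 RPKM in wild type, a difference of 0.87 ± 0.08, adjusted p = 0.00322. None of these 3 receptors overlapped between genotypes.

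Wnt8a had the largest genotype difference of the family, at 5.77 and 4.93 RPKM in GLP 3A and 1.29 and 1.53 RPKM in wild type, a difference of 1.40 ± 0.21, adjusted p = 0.0122. Wnt5b, at 4.01 and 4.09 RPKM in GLP 3A and 2.54 and 2.81 RPKM in wild type, differed by 0.46 ± 0.09, adjusted p = 0.0261. Both ligands were higher in each GLP 3A library than in each wild-type library. Wnt3 was at 0.888 and 1.26 RPKM in GLP 3A and 0.304 and 0.449 RPKM in wild type and did not pass the test, at 0.59 ± 0.21, adjusted p = 0.133. Wnt6 did not differ beyond its spread either, at -0.07 ± 0.16, adjusted p = 0.865. When any of the 4 untreated libraries was left out, 2 genes were called, Fzd2 and Fzd7. The call of Fzd5 was also lost with a pseudocount of 0.1, and that of Wnt5b without a filter on low values and after quantile normalization. With an untreated library left out the adjusted p was 0.0956 to 0.145 for Fzd5, 0.113 to 0.174 for Wnt5b and 0.0775 to 0.098 for Wnt8a. Without either GLP 3A library with RA, 8 genes were called, and 9 were when the fit held the 4 untreated libraries alone. The share of all genes called rose with these counts, to 17.3% and 17.4% without a GLP 3A library with RA and 26.1% in the smaller fit, and was 1.56% to 1.97% with an untreated library left out.

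Fzd7 (59538990 to 59543799) and Fzd5 (64777131 to 64784324) both lie on chromosome 1 and Fzd2 (102465744 to 102469372) lies on chromosome 11, in mm9. Genes of these chromosomes differed between genotypes as a whole. The median difference was -0.24 over the 710 tested genes of chromosome 1 in untreated cells and -0.31 with RA, and 0.24 in both states over the 1114 tested genes of chromosome 11. On the other 17 autosomes it lay between 0.00 and 0.08 untreated and between -0.06 and 0.00 with RA. Fzd7 lay 0.95 below the median of its chromosome, where 8 genes were lower still, and Fzd5 lay 0.55 below it, where 23 genes were lower. Fzd2 lay 0.64 above the median of chromosome 11, where 42 genes were higher. The part of the chromosome-wide differences in these 3 calls was not tested. Of 13 tested extraembryonic endoderm markers 1 was called higher in untreated GLP 3A and 12 were not called, and the higher sum of the list in untreated GLP 3A lay mainly in Sparc, at 262 and 242 RPKM in GLP 3A and 91.6 and 79.6 RPKM in wild type.

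**Figure D4:**
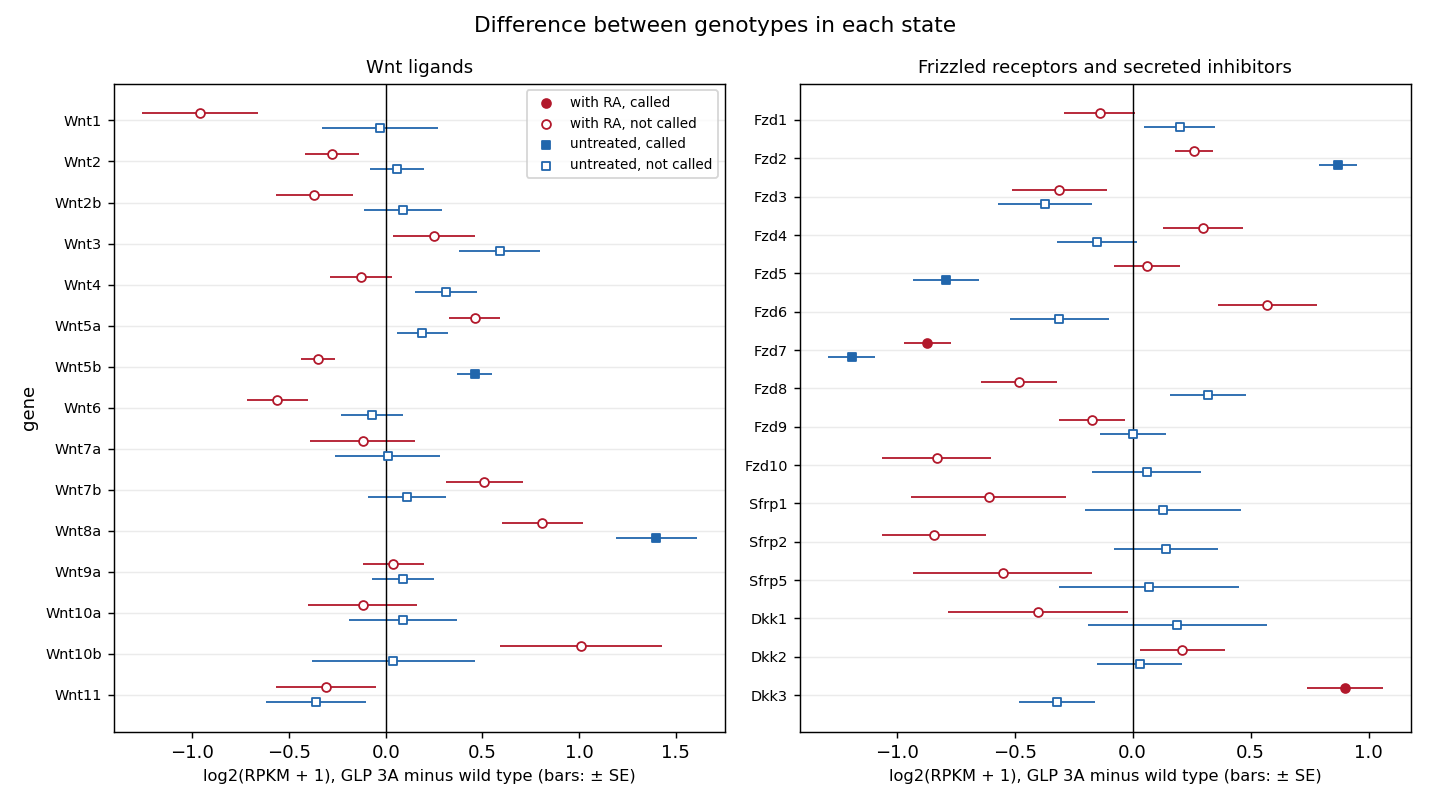
Difference in log2(RPKM + 1), GLP 3A minus wild type, with its SE as a bar, for the 15 tested Wnt genes (left panel) and the 16 tested Fzd, Sfrp and Dkk genes (right panel), with RA (red circles) and untreated (blue squares), open where not called. Fzd7 is filled and left of 0 in both states, at -0.87 with RA and -1.19 untreated, and Dkk3 is the filled symbol right of 0 with RA, at 0.90.

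With RA, 1 of the 31 genes was called higher in GLP 3A (Dkk3) and 1 lower (Fzd7). Of all genes tested 10.6% were called, 5.3% higher and 5.31% lower. The 2 calls of the family are too few to set its share apart from that background, and their number changed with the settings. Before adjustment 13 of the 31 limma p-values (41.9%) were under 0.05, beside 29.2% over all genes. In untreated cells the order was the reverse, with 19.4% of the 31 beside 28.3%. Fzd7 was at 27.5 and 32.1 RPKM in GLP 3A and 53.0 and 57.6 RPKM in wild type, a difference of -0.87 ± 0.10, adjusted p = 0.0108. Here too both GLP 3A libraries were below both wild-type libraries. It lay 0.56 below the median of chromosome 1, where 36 genes were lower. Dkk3 was at 7.77 and 6.14 RPKM in GLP 3A and 3.86 and 2.70 RPKM in wild type, a difference of 0.90 ± 0.16, adjusted p = 0.0276. Its GLP 3A libraries were both above the wild-type ones. Of 8 tested trophoblast markers 3 were called higher in GLP 3A with RA, 1 lower and 4 not, and their part was not tested. The summed level of that list lay mainly in keratins, such as Krt8 at 749.6 and 432 RPKM in GLP 3A and 381 and 350.1 RPKM in wild type, whereas Gata3 was at 7.92 and 9.22 RPKM in GLP 3A and 13.3 and 15.1 RPKM in wild type.

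Some genes called between the untreated genotypes were not called with RA. Fzd5 was at 1.53 and 1.07 RPKM in GLP 3A and 1.41 and 1.01 RPKM in wild type, with overlap, and differed by 0.06 ± 0.14, adjusted p = 0.827. Fzd2 was at 101 and 109.5 RPKM in GLP 3A and 84.6 and 90.1 RPKM in wild type, without overlap, and differed by 0.26 ± 0.08, adjusted p = 0.0937, close to the median of chromosome 11. Wnt8a was at 2.02 and 0.990 RPKM in GLP 3A and 0.502 and 0.295 RPKM in wild type, without overlap, and differed by 0.81 ± 0.21, adjusted p = 0.0597. Its ratio of mean RPKM between genotypes was 3.78 with RA and 3.81 untreated. Wnt5b, higher in untreated GLP 3A, was at 2.24 and 2.00 RPKM in GLP 3A and 3.04 and 2.90 RPKM in wild type, with the GLP 3A libraries below the wild-type ones, and differed by -0.35 ± 0.09, adjusted p = 0.0582. Other differences fell short of the threshold with no overlap between genotypes, among them Sfrp2 at -0.84 ± 0.22, adjusted p = 0.0612, Fzd10 at -0.83 ± 0.23, adjusted p = 0.0699, Wnt1 at -0.96 ± 0.30, adjusted p = 0.0935 and Wnt6 at -0.56 ± 0.16, adjusted p = 0.0828. Wnt6 lies on chromosome 1, and its difference was 0.25 below the median of that chromosome, where 120 genes were lower. Wnt10b, for which replicate 1 of GLP 3A stood apart, differed by 1.01 ± 0.42, adjusted p = 0.172.

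Without wild type with RA replicate 2 no member and 2.58% of all genes were called, and the adjusted p of Fzd7 was 0.0516. More members were called when either GLP 3A library with RA was left out. The share of all genes called then fell without replicate 1 and rose without replicate 2. When any 1 of the 4 untreated libraries was left out, Fzd7 alone was called. Dkk3 was lost in 6 of the 8 cases, at 0.0664 to 0.0864. With only the 4 libraries compared in the fit no gene of the family was called (adjusted p = 0.15 for Fzd7 and 0.203 for Dkk3), and 0.114% of all genes were.

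The difference between the RA responses of the genotypes was called for 1 of the 31 genes, Wnt5b, where 1.8% of all genes were called (0.561% higher and 1.24% lower). Its response was -0.70 ± 0.09 in GLP 3A and 0.11 ± 0.09 in wild type, a difference of -0.81 ± 0.13, adjusted p = 0.0405. Before adjustment 8 of the 31 limma p-values (25.8%) were under 0.05, near the 20.9% over all genes. Dkk3 (1.23 ± 0.23, adjusted p = 0.0601), Fzd2 (-0.61 ± 0.12, adjusted p = 0.0604) and Fzd5 (0.85 ± 0.20, adjusted p = 0.0892) did not pass the test. The Wnt5b call was lost when any of 6 libraries was left out (adjusted p = 0.0993 to 0.201), both wild-type libraries with RA and all 4 untreated ones, and no member was then called. It was also lost with a pseudocount of 0.1 (0.0507) and without a filter on low values (0.0705). Quantile normalization (0.0545) and a fit with replicate number as a block (0.0574) ended it too. More members were called when either GLP 3A library with RA was left out, and the share of all genes called then rose too.

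Genes that act around the family were counted in 6 lists of 85 genes, of which 75 were tested. With RA, 37 were called higher and 16 lower in GLP 3A, and 49 higher and 10 lower in wild type. Between genotypes 0 were called higher and 9 lower in GLP 3A with RA, against 9 higher and 2 lower untreated. Over all genes these comparisons called 10.6% with RA (5.3% higher and 5.31% lower) and 11.7% untreated (7.52% higher and 4.15% lower), so in total, without regard to direction, both counts of the 75 were near the background. The response differed between genotypes for 1 gene upward and 6 downward, beside 1.8% of all genes. For RA itself the background was 70.4% in GLP 3A and 68.5% in wild type. The number of calls for RA varied with the library left out in both genotypes, and so did the share of all genes called. Between genotypes and for the response the number of calls also changed with the library left out. The response calls were lost when any 1 of the 4 untreated libraries was left out, so no 1 of these 4 stood out.

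Of the 6 genes for making and releasing Wnt proteins, 2 were called higher and 2 lower with RA in GLP 3A, and 3 higher and 3 lower in wild type. Wls, which carries Wnt proteins to the cell surface, was at 65.4 and 77.8 RPKM in GLP 3A with RA and 65.6 and 83.3 RPKM in wild type with RA, against 3.70 and 4.08 RPKM in untreated GLP 3A and 3.13 and 2.56 RPKM in untreated wild type. It was higher in all libraries with RA, by 3.89 ± 0.15 in GLP 3A (adjusted p = 9.2e-06) and 4.29 ± 0.15 in wild type (adjusted p = 6.2e-06). Notum, an enzyme that removes the lipid of Wnt proteins and so inactivates them, was at 5.72 and 6.62 RPKM in GLP 3A with RA and 9.31 and 12.4 RPKM in wild type with RA, against 58.9 and 54.8 RPKM in untreated GLP 3A and 28.2 and 28.9 RPKM in untreated wild type. It was highest in untreated GLP 3A and lowest in GLP 3A with RA. The difference with RA was -3.01 ± 0.14 in GLP 3A (adjusted p = 1.4e-05) and -1.33 ± 0.14 in wild type (adjusted p = 2.6e-04). Notum was called in each of the 3 other comparisons, higher in untreated GLP 3A (0.97 ± 0.14, adjusted p = 0.0106), lower in GLP 3A with RA (-0.72 ± 0.14, adjusted p = 0.03) and with a response that differed by -1.69 ± 0.19, adjusted p = 0.0217. Each of these 3 calls was lost when any 1 untreated library was left out. The call with RA was also lost without GLP 3A with RA replicate 1 or wild type with RA replicate 2. Porcn, the enzyme that adds the lipid, was at 25.9 and 10.8 RPKM in GLP 3A with RA and 11.7 and 6.89 RPKM in wild type with RA, against 26.5 and 23.96 RPKM in untreated GLP 3A and 39.0 and 35.7 RPKM in untreated wild type. The difference of Porcn was -0.56 ± 0.40 in GLP 3A (adjusted p = 0.247) and -1.94 ± 0.40 in wild type (adjusted p = 0.0051), called in wild type. The difference between these responses was not called (1.38 ± 0.56, adjusted p = 0.233).

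Of 10 tested co-receptors and alternative receptors, 6 were called higher with RA in GLP 3A and 8 in wild type, and none lower. Gpc3, a glypican that binds Wnt proteins, differed by 3.64 ± 0.19 in GLP 3A (adjusted p = 2.1e-05) and 4.84 ± 0.19 in wild type (adjusted p = 8.7e-06). Gpr124, which works with Reck and Wnt7 ligands in brain vessels, differed by 4.65 ± 0.27 in GLP 3A (adjusted p = 3.3e-05) and 4.23 ± 0.27 in wild type (adjusted p = 4.4e-05). Ror1, a receptor for Wnt5a, differed by 1.83 ± 0.11 in GLP 3A (adjusted p = 3.9e-05) and 2.87 ± 0.11 in wild type (adjusted p = 9.1e-06), and the GLP 3A response minus the wild-type response was -1.04 ± 0.16, adjusted p = 0.0405. Ptk7, a polarity co-receptor, also had a lower response in GLP 3A (-0.79 ± 0.11, adjusted p = 0.031). Both response calls were lost when any 1 untreated library or either wild-type library with RA was left out. The beta-catenin co-receptor Lrp5 was at 23.99 and 20.3 RPKM in GLP 3A with RA and 23.0 and 16.9 RPKM in wild type with RA, against 22.6 and 21.7 RPKM in untreated GLP 3A and 19.8 and 19.9 RPKM in untreated wild type, in overlapping ranges, and was not called with RA in either genotype.

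Of 16 tested secreted or surface modulators, 11 were called higher and 1 lower with RA in GLP 3A, and 13 higher and 0 lower in wild type. Rspo3, which strengthens Wnt signals through Lgr receptors, was at 4.70 and 8.82 RPKM in GLP 3A with RA and 15.4 and 19.4 RPKM in wild type with RA, against 0.321 and 0.190 RPKM in untreated GLP 3A and 0.116 and 0.236 RPKM in untreated wild type. Wild type with RA was the highest group and did not overlap with GLP 3A with RA. With RA it differed by 2.58 ± 0.26 in GLP 3A (adjusted p = 2.2e-04) and 3.96 ± 0.26 in wild type (adjusted p = 4.5e-05), and between genotypes with RA by -1.29 ± 0.26, adjusted p = 0.0335. Igfbp4, a secreted protein that can also bind Lrp6, differed with RA by 2.95 ± 0.29 in GLP 3A (adjusted p = 2.2e-04) and 5.06 ± 0.29 in wild type (adjusted p = 2.9e-05). Lgr4, a receptor for Rspo proteins, was called lower with RA in GLP 3A (-0.35 ± 0.10, adjusted p = 0.0172) and higher in wild type (0.74 ± 0.10, adjusted p = 7.8e-04), and the responses differed by -1.10 ± 0.14, adjusted p = 0.0278. Shisa2, whose relative in frogs retains Frizzled receptors inside the cell, was the gene whose response was higher in GLP 3A (0.96 ± 0.15, adjusted p = 0.0387). When any 1 untreated library or either wild-type library with RA was left out, 3 calls were lost. They were the genotype call of Rspo3 and the response calls of Lgr4 and Shisa2. The response call of Shisa2 was also lost without GLP 3A with RA replicate 1, and the GLP 3A call of Lgr4 without replicate 1 of either GLP 3A group.

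In the planar polarity list 7 of 11 genes were called higher and 3 lower with RA in GLP 3A, and 8 higher and 1 lower in wild type. Prickle1 was at 20.01 and 23.5 RPKM in GLP 3A with RA and 16.3 and 16.6 RPKM in wild type with RA, against 4.02 and 4.13 RPKM in untreated GLP 3A and 0.766 and 0.788 RPKM in untreated wild type. The gene was lowest in untreated wild type and already higher in untreated GLP 3A (1.51 ± 0.09, adjusted p = 8.7e-04), and the GLP 3A response minus the wild-type response was -1.13 ± 0.13, adjusted p = 0.0217. In the cytoplasmic list 7 of 19 were higher and 6 lower in GLP 3A, and 10 higher and 4 lower in wild type. Nkd1, a feedback inhibitor of the pathway, differed with RA by 2.18 ± 0.22 in GLP 3A (adjusted p = 2.2e-04) and 3.26 ± 0.22 in wild type (adjusted p = 4.8e-05). Axin2, a beta-catenin target used as a readout of the pathway, was at 9.84 and 10.7 RPKM in GLP 3A with RA and 11.7 and 14.0 RPKM in wild type with RA, against 12.98 and 12.6 RPKM in untreated GLP 3A and 10.01 and 9.35 RPKM in untreated wild type. Its 8 values lay within a narrow range beside those of the ligands. The Gsk3 inhibitor of 2i medium acts below the receptor, and the labels do not say whether it was kept with RA. Axin2 can therefore not be compared between the states as a readout of the ligands. Axin2 was called lower with RA in GLP 3A (-0.29 ± 0.10, adjusted p = 0.0364) and higher in wild type (0.37 ± 0.10, adjusted p = 0.0151), and the difference of these responses was not called. The GLP 3A call of Axin2 was lost when GLP 3A with RA replicate 1 or any 1 untreated library was left out. Its wild-type call was lost without replicate 2 of either wild-type group. Among the nuclear partners 4 of 13 were higher and 4 lower in GLP 3A, and 7 higher and 2 lower in wild type. Tcf7l1, a TCF factor that mainly represses in stem cells, was at 29.5 and 30.5 RPKM in GLP 3A with RA and 34.9 and 31.5 RPKM in wild type with RA, against 53.8 and 54.5 RPKM in untreated GLP 3A and 27.5 and 28.5 RPKM in untreated wild type. Untreated GLP 3A was the highest group, above untreated wild type by 0.93 ± 0.07, adjusted p = 0.00178, and its response differed by -1.07 ± 0.10, adjusted p = 0.0172. The response call of Tcf7l1 was lost when any 1 untreated library was left out. That of Prickle1 was lost when any 1 of these or either wild-type library with RA was left out.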

How the data were processed

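RNA-seq of total RNA gave 8 libraries, 2 for each of 4 groups; the other 32 samples of the series, chromatin and input libraries, were not analysed here. The deposited values are RPKM per gene symbol with mm9 loci. Per the submitters' processing notes the authors used Bowtie 0.12.7, TopHat, Cufflinks and SAMtools with mm9; the role of each tool, the annotation, strand and treatment of overlapping genes are not stated. RPKM keeps no read counts, so no counting interval is given, and replicate 2 libraries, being shallower, are less precise at low values.

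Here limma 3.58.1 in R 4.3.3 was fitted to log2(RPKM + 1) with 4 group means over all 8 libraries, an intensity trend and two-sided tests. Genes at 1 RPKM or more in at least 2 libraries entered, and p-values were adjusted by Benjamini-Hochberg over all of them in each of 5 comparisons: genotype untreated, genotype with RA, RA in each genotype, and the difference of the RA responses. The steps were tested on simulated data. Every tested family gene is given in all libraries; from the pathway lists, up to 4 called genes with the largest difference and 2 uncalled ones per list and comparison could be named. The members and lists were chosen with earlier results of these data known. Alternatives were other pseudocounts, filters, scalings and variance priors, a replicate block, only the libraries compared, and each library left out in turn, where a lone library is assumed to vary like the other groups. Promoter windows came from RefSeq (GRCm38.p6), a build other than that of the loci, and were matched by symbol.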

Additional observations from a re-analysis of the deposited data

Results flagged for a closer look

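Wnt5b drew attention because its RA response differed between the genotypes by the test of the difference itself. The response was -0.70 ± 0.09 in GLP 3A and 0.11 ± 0.09 in wild type on log2(RPKM + 1), a difference of -0.81 ± 0.13 (limma, adjusted p = 0.0405). The call was lost when either wild-type library with RA or any of the 4 untreated libraries was left out (adjusted p = 0.0993 to 0.201). It was also lost with a pseudocount of 0.1 (0.0507) and without a filter on low values (0.0705). Quantile normalization (0.0545) and the replicate block (0.0574) ended it too. Reads of Wnt5b and of the overlapping gene Fbxl14 may not be told apart, and the part of that overlap was not tested.

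Among genes that act around the family, 7 more had an RA response that differed between genotypes by the same test. The response in GLP 3A minus that in wild type was -1.69 for Notum, -1.13 for Prickle1, -1.10 for Lgr4, -1.07 for Tcf7l1, -1.04 for Ror1, -0.79 for Ptk7 and 0.96 for Shisa2 on the log2 scale. Each of these 7 calls was lost when any of the 4 untreated libraries was left out.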

How the results depend on the processing

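Among the calls of the family, 2 of 5 between untreated genotypes (Fzd2 and Fzd7), 0 of 2 between genotypes with RA, 22 of 30 for RA in GLP 3A, 20 of 25 for RA in wild type and 0 of 1 for the difference of responses were kept under every alternative that tested the gene. A filter of 5 RPKM left 3, 14 and 10 calls for the untreated genotypes, RA in GLP 3A and RA in wild type. It left 0 for the difference of responses. Fewer genes were tested then, and 12.6%, 73%, 71.3% and 1.88% of them were called in these comparisons, in the same order. With only the libraries compared in the fit, 9 genes were called between untreated genotypes and 0 with RA. The shares of all genes were 26.1% and 0.114%. Between genotypes with RA, 4 were called after quantile normalization, 4 with a robust prior and 4 with the replicate block. In these settings 11.5%, 11.7% and 12.5% of all genes were called. For the difference of responses, 0 were called with a pseudocount of 0.1, 0 without a filter, 0 after quantile normalization and 2 with a robust prior. Of all genes 1.2%, 1.04%, 0.985% and 2.74% were called in these settings, and the cause was not tested. Leaving out each library gave 2 to 8 calls between untreated genotypes, 0 to 10 with RA, 24 to 29 for RA in GLP 3A, 20 to 27 for RA in wild type and 0 to 9 for the difference of responses. Uncalled values that changed sign were Fzd5 between genotypes with RA (-0.04 after quantile normalization, -0.09 to 0.20 leaving out a library), Wnt4 for RA in GLP 3A (-0.28 and -0.06 to 0.36), Wnt5b for RA in wild type (-0.21 after quantile normalization), Fzd10 for RA in wild type (-0.05 to 0.24 leaving out a library) and Fzd7 for RA in wild type (-0.04 to 0.08). Over all genes, the calls between untreated genotypes split into 993 higher and 548 lower as deposited, 784 and 665 after median-of-ratios scaling, and 546 and 465 after quantile normalization. Of the 84 named results that could be compared, 10 calls were lost after quantile normalization, among them Wnt4, Wnt5a, Wnt7b and Wnt10a for RA in wild type. Deviations of same-numbered libraries correlated at 0.17 to 0.36 between groups, but with 2 numbers the labels do not show that they pair. With the replicate block the difference of responses was called for Fzd5 and no longer for Wnt5b (0.0574), and RA in GLP 3A no longer for Wnt10a (0.0542). The pathway lists were put through the same alternatives after their values had been seen. Between untreated genotypes 11 of their genes were called, 6 after quantile normalization and 24 with only the libraries compared. With RA 9 were called, 5 with a pseudocount of 0.1, 5 without a filter and 0 with only the libraries compared. For the response 7 were called, and 4 after quantile normalization. With 2 libraries a group and unknown depth, no counting precision can be given for genes near 0 RPKM.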
